A study of Mus musculus with 4 samples.

Results

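Neurotrophins, their Trk receptors and secreted proteins that neurons make in response to activity were followed in the dentate gyrus of handled control mice. The listed genes were Bdnf, Ntf3, Ntrk2, Ntrk3, Nptx1, Nptx2, Inhba and Vgf, and a probe set was taken where the array annotation named it by exactly 1 gene symbol and that symbol was on the list. This gave 6 of the 8 genes, Bdnf, Ntrk2, Ntrk3, Nptx1, Nptx2 and Inhba, with 1 probe set each, among 8251 genes named in this way by 10833 probe sets. Ntf3 and Vgf were named by no such probe set and were not analysed here. The samples were total RNA of hippocampal dentate gyrus from C57BL/6J mice, young males that were handled and otherwise untreated. Each of the 4 single-channel arrays held control RNA taken at 1, 2, 4 or 6 h, counted from the last shock given to experimental mice, which were not analysed here. With a single array per hour there is no replicate at any hour, and every mean ± SD is over the 4 arrays (n = 4) unless stated otherwise. Neither the number of mice behind a sample nor pooling is given in the labels, so p-values measure only the spread between these samples.

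Neurotrophins are secreted growth factors that bind Trk receptor tyrosine kinases: BDNF signals through TrkB, the product of Ntrk2, and NT-3 through TrkC, the product of Ntrk3. Dentate granule cells make BDNF and carry it to their mossy fibre terminals, and seizures and other strong activity are known to raise its mRNA there. Neuronal pentraxins gather AMPA-type glutamate receptors at synapses, activin A (a dimer of the inhibin beta A chain that Inhba encodes) signals through serine/threonine kinase receptors to SMAD proteins, and Nptx2 and Inhba are textbook examples of genes that neuronal activity induces.

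The start regions of Bdnf and Inhba are shown because activity is known to act on Bdnf through its promoters, and because Inhba varied most between arrays. Sequences are RefSeq reference sequence, GRCm38.p6, the 250 bases before a transcript start, and 4 of the 8 listed genes had such an entry, with 11 entries in all. Bdnf has several promoters, and 7 of the entries belonged to it. The cyclic AMP response element is the site that CREB, a transcription factor switched on by calcium and cyclic AMP, binds. Its palindrome TGACGTCA, searched on both strands, was in 0 of the 11 regions, and 1.55% of all 32851 such regions held it. Its shorter core CGTCA, searched on both strands and part of the palindrome, was in 1 of the 11, the third Bdnf start in genomic order, and in 17.8% of all regions. There it began 35 bases before the start, within TCACGTCA. The first line is that region, chr2:109692186-109692435 on the plus strand, with the core in capitals, and the second is the region before the Inhba start, chr13:16011601-16011850 on the plus strand, in which neither string was found.
Bdnf: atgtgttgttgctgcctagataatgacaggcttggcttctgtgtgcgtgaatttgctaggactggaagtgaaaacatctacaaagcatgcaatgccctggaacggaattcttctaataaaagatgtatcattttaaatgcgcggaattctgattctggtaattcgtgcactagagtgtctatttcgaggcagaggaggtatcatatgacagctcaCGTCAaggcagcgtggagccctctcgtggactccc
Inhba: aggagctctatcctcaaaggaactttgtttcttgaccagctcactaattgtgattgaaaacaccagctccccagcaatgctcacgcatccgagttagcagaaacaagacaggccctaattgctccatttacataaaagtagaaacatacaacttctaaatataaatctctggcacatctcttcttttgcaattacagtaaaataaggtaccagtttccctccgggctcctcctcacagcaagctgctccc
A string match describes these letters and does not by itself show binding, and the single Bdnf probe set does not tell which start its transcripts used.

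The 1 h array stood apart from the other 3. Its ratio of 3' to 5' signal for Gapdh, a control transcript, was 4.88, against 1.13 to 1.33 in the others, and the beta-actin ratio was 2.51 against 1.83 to 2.20. Values of the members and list counts are also given without it. Of 8 granule cell markers 6 were on the array under 1 symbol, and their summed intensity ran from 4692 to 5276, with Calb1 (calbindin, abundant in granule cells) between 2033 and 2375 and Prox1, the granule cell transcription factor, between 71.6 and 278. The summed markers of CA pyramidal cells, interneurons, astrocytes and microglia varied by at most 1.16-fold between arrays, and those of 3 other cell types by more. Single markers could vary more than their sum. The CA pyramidal gene Nnat read 713 at 1 h and 2062 to 2627 later, and Rgs14 read 3951 at 1 h and 2956 to 3782 later. The dimmer probe set of Aqp4, an astrocyte gene, read 217 at 1 h and 613 to 702 later. The brighter Aqp4 probe set read 1751 at 1 h and 2312 to 2692 later. Bright markers weigh most, and Cck read 11068 to 14058 within interneuron sums of 24653 to 27451. The oligodendrocyte sum was 20100.2 at 2 h and 13032 to 13673 elsewhere, the endothelial sum 809 to 1472, and the choroid plexus sum 679, 816, 1758 and 3590.1 at 1, 2, 4 and 6 h. The rise of the choroid plexus sum was mainly that of Ttr, at 225, 444, 1258 and 3009. Folr1 read 65.5, 63.1, 118 and 267 on one probe set and 68.9, 23, 43 and 30.5 on another. Kl read 280 at 1 h and 109 to 194.5 later. In whole tissue, fewer cells of a type and less RNA per cell cannot be told apart.

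Bdnf, the main neurotrophin of the adult hippocampus, gave a strong signal in all 4 arrays. Over the hours 1, 2, 4 and 6 its probe set measured 4481, 2996, 3761 and 3559.6, with a mean intensity of 3699 ± 613. The 1 h array was highest and the 2 h array lowest, and the 4 values lay within a 1.50-fold range. In each array the Bdnf probe set was brighter than at least 95% of the 12422 non-control probe sets, at the 97.1st, 95.3rd, 96.4th and 96.1st percentile at 1, 2, 4 and 6 h. Brightness depends on the probes as well as on the transcript, so it places the signal within an array and does not rank genes by transcript number. Without the 1 h array the range fell to 1.26-fold, with a mean of 3439 ± 396 (SD, n = 3).

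Of the receptor genes, Ntrk3 was measured in all 4 arrays and Ntrk2 lay near the lower end of the signal range. The Ntrk3 probe set, for the receptor of NT-3, read 229, 342, 432 and 395 over the hours 1, 2, 4 and 6 (mean 349 ± 88.0). The 1 h array was the lowest, and the other 3 lay within a 1.26-fold range of each other. The Ntrk2 probe set, for the BDNF receptor, read 16.6, 29.8, 27.4 and 19.7 at the same hours (mean 23.4 ± 6.24). All 4 values lay near an intensity of 16.4, the 10th percentile of all non-control values, under which signals were set to that floor. They stood between the 8.73rd and the 17.5th percentile of the arrays. The probe set therefore failed the filter on dim signals, gave no test and gives no fold here. With 1 probe set, a low transcript level and poorly responding probes cannot be told apart, and the Ntrk2 reading says nothing on whether TrkB was present.

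Of the neuronal pentraxin genes, Nptx1 spanned a wide and Nptx2 a narrow range between arrays. Nptx1 encodes neuronal pentraxin 1, and over the hours 1, 2, 4 and 6 its probe set read 1346, 4261, 2481 and 2716 (mean 2701 ± 1199.7). The 2 h array was highest and the 1 h array lowest, 3.17-fold apart, while the 4 h and 6 h values differed 1.09-fold. Nptx2, also called Narp, encodes the activity-induced pentraxin, and its probe set read 304, 363, 343 and 292 in the same order (mean 325 ± 32.9). Its 4 values lay within a 1.24-fold range, with the 6 h array lowest and the 2 h array highest. This was the narrowest range among the 6 probe sets.

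Inhba, the activin A subunit gene, varied most. Over the hours 1, 2, 4 and 6 its probe set read 237, 124, 267 and 70.4 (mean 175 ± 92.9). The 1 h and 4 h arrays were high and the 2 h and 6 h arrays low, with 3.79-fold between the 4 h and the 6 h value. The signal was dim: it stood at the 56.0th, 42.1st, 58.5th and 33.2nd percentile of the arrays at 1, 2, 4 and 6 h. The range was the same 3.79-fold without the 1 h array.

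**Figure D1:**
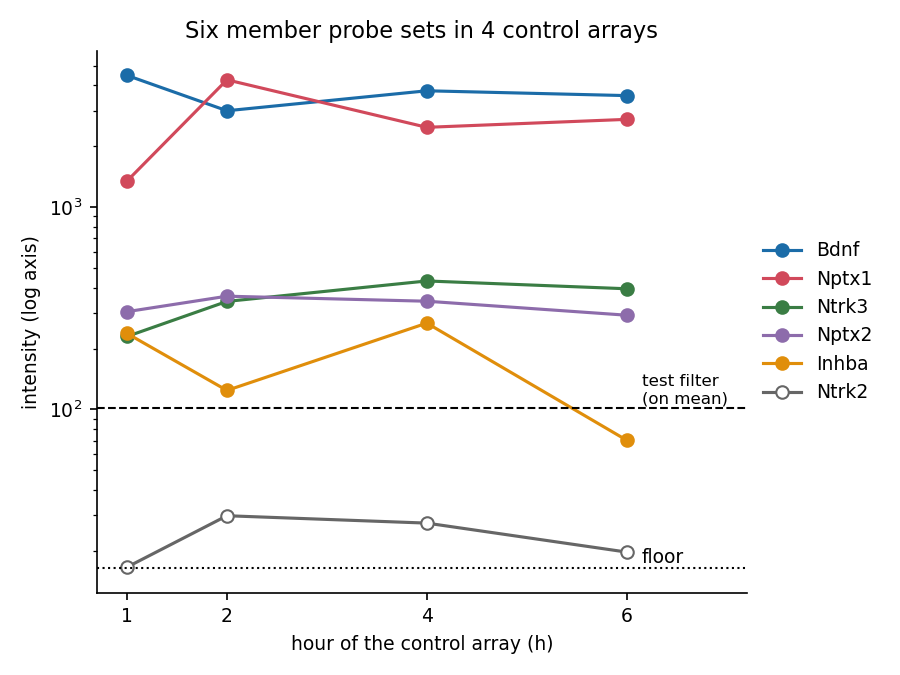
Intensity (log axis) of the 6 probe sets against the hour of the control array, 1 array per hour; filled points passed the filter on mean log2 intensity (dashed line), open points did not, and the dotted line is the floor of 16.4. Bdnf stays between 2996 and 4481, Nptx1 spans 1346 to 4261, Inhba spans 70.4 to 267, and Ntrk2 lies at 16.6 to 29.8.

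The spread of each probe set between control arrays was set beside that of the 7453 probe sets kept for tests, as a description. The SD of log2 intensity over the 4 arrays was 0.15 for Nptx2, 0.24 for Bdnf, 0.40 for Ntrk3, 0.68 for Nptx1 and 0.89 for Inhba, and the median of all kept probe sets was 0.24. Inhba stood at the 96.5th percentile of these SDs, Nptx1 at the 92.7th, Ntrk3 at the 77.3rd, Bdnf at the 49.0th and Nptx2 at the 22.9th. Without the 1 h array, Ntrk3 moved to the 46.7th percentile (SD 0.17), close to Bdnf at the 47.1st and Nptx2 at the 44.1st. Nptx1 and Inhba stayed high, at the 86.3rd (SD 0.42) and 98.2nd (SD 0.97).

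The highest value was at least 2-fold above the lowest in 2 of the 5 kept members, Nptx1 and Inhba, and in 18.5% of all kept probe sets. Without the 1 h array that left 1 of 5, Inhba, against 8.22% of all. Dim probe sets vary more, so the share was also taken by brightness. Inhba lay between the 40th and the 60th percentile of mean log2 intensity, where 39.3% of 2484 probe sets spanned 2-fold or more, and 20.9% without the 1 h array. Nptx1 lay above the 80th percentile together with Bdnf, where 4.71% of 2485 probe sets spanned 2-fold. Without the 1 h array 0.443% did so, and Nptx1, at 1.72-fold, was not among them.

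**Figure D2:**
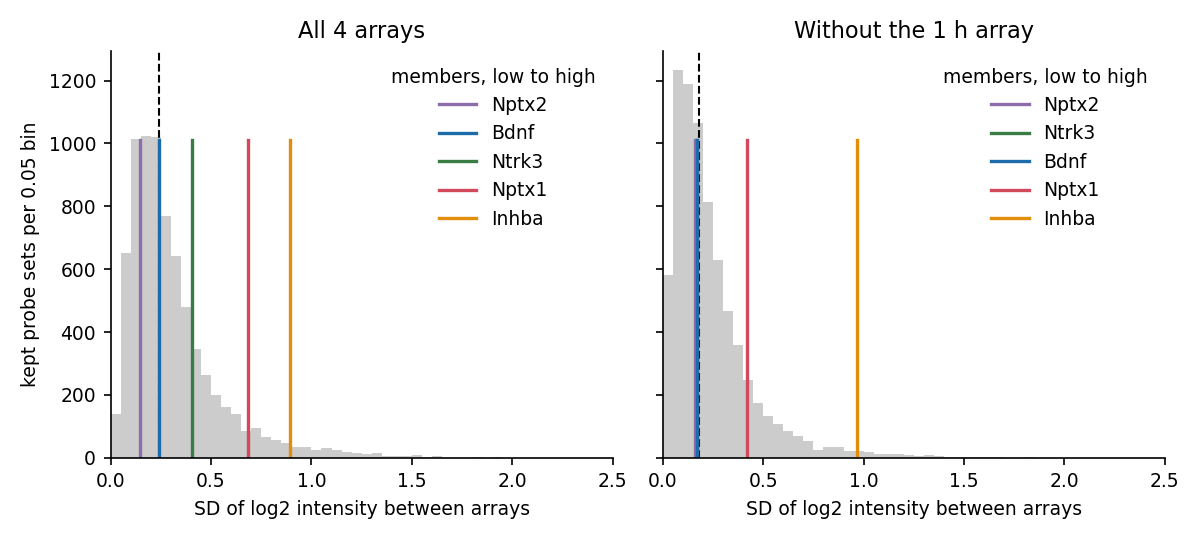
Number of kept probe sets by SD of log2 intensity between arrays, over all 4 arrays (left) and over the 2, 4 and 6 h arrays (right); the dashed line is the median of all kept probe sets and coloured lines are the 5 kept members. Nptx1 and Inhba lie to the right in both panels (0.68 and 0.89, then 0.42 and 0.97), and Ntrk3 moves from 0.40 to 0.17 when the 1 h array is left out.

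Differences between hours have no test with 1 array each, so members at least 2-fold apart were counted beside the share of all 7453 kept probe sets. At 2 h against 1 h this was 1 of 5, Nptx1, which was 3.17-fold higher at 2 h, where 9.79% of all were 2-fold apart. At 4 h against 1 h it was 0 of 5, against 8.41% of all, with Ntrk3 (1.88-fold higher) and Nptx1 (1.84-fold higher) nearest to the limit. At 6 h against 1 h it was 2 of 5, against 9.34% of all: Nptx1 was 2.02-fold higher and Inhba 3.37-fold lower at 6 h. Nptx1 lies at the limit there, and with quantile-normalized arrays 1 of 5 was counted, Inhba.

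Between the later hours only Inhba reached 2-fold. It was 2.15-fold higher at 4 h than at 2 h, where 4.55% of all kept probe sets were 2-fold apart, and 3.79-fold lower at 6 h than at 4 h, where 3.84% were. At 6 h against 2 h it was 1.76-fold lower, so 0 of 5 members were 2-fold apart, with 4.07% of all. In sum, 5 of 30 member comparisons between hours reached 2-fold, 2 of them of Nptx1 and 3 of Inhba. Per pair of hours, 3.84% to 9.79% of all kept probe sets did so. These comparisons share arrays and are not independent. The Inhba signal is dim, and 39.3% of kept probe sets of like brightness spanned 2-fold or more over the 4 arrays. Set against the mean log2 of the other 3 arrays, the 1 h array differed at least 2-fold in 1 of 5 members, Nptx1 (a log2 difference of -1.19), and in 7.08% of all kept probe sets. By the same measure Nptx1 at 2 h (1.03) and Inhba at 4 h (1.07) and 6 h (-1.50) also differed at least 2-fold. No share of all kept probe sets is given for those arrays.

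The only test the design allows asks for a steady rise or fall over the 4 hours. It was made in limma as a straight line through log2 intensity against the hour, with p-values adjusted over all 7453 kept probe sets. 0 of the 5 members passed at an adjusted p of 0.05, as against 0.0134% of all kept probe sets (1 of 7453), and 0 of 5 had an unadjusted p under 0.05 in limma, as against 328 of 7453. The slope of Ntrk3 was 0.14 ± 0.07 (SE) log2 units per hour (limma adjusted p = 0.874), and that of Nptx1 0.09 ± 0.12 (limma adjusted p = 0.931). Slopes were negative for Inhba, at -0.24 ± 0.16 (limma adjusted p = 0.874), for Bdnf, at -0.03 ± 0.05 (0.951), and for Nptx2, at -0.02 ± 0.06 (0.964). The directions rest on single arrays. Without the 1 h array the slope of Bdnf was 0.06 and that of Nptx1 -0.16, and without the 6 h array the slope of Inhba was 0.13 and that of Nptx2 0.04. Ntrk3 had a positive slope in each of the 10 alternatives fitted per hour, from 0.05 to 0.28, with limma adjusted p-values from 0.396 to 1.00. The changed floor, filters and variance prior left this slope at 0.14, so those fits say nothing more on its direction. A linear fit does not describe the alternating values of Inhba or the 2 h peak of Nptx1.

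Genes around these members in their pathways were read from the same fit, as counts of kept probe sets. The median slope of all kept probe sets was -0.01 log2 units per hour, and 46.5% of slopes were positive. At least 2-fold between the highest and lowest array was seen in 1 of 12 kept probe sets of neurotrophin processing, 2 of 19 of Trk signalling, 2 of 7 of pentraxin partners, 3 of 10 of the activin pathway, 1 of 11 of the granins and 3 of 27 of the immediate early genes, beside 18.5% of all kept probe sets. In each of these 6 lists, 0 probe sets passed in limma in either direction at an adjusted p of 0.05, and 0 had an unadjusted p under 0.05.

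Genes whose products process or release neurotrophins had slopes in both directions. The list had 12 kept probe sets of 10 genes, with 5 positive and 7 negative slopes and a median slope of -0.00459. With the 1 h array left out, 7 of 12 slopes were positive, with a median of 0.02. Cpe, carboxypeptidase E, which trims prohormones and helps to sort pro-BDNF into secretory granules, had the highest intensities of the list, with means of 17144 ± 2423 and 11503 ± 570.4 on its probe sets. Plat, tissue plasminogen activator, which starts the plasmin cascade that cleaves pro-BDNF, read 832, 881, 801 and 848 at 1, 2, 4 and 6 h. The endoprotease Furin, which cleaves pro-neurotrophins, read 949.9 at 1 h and 605 to 664 later. The convertase Pcsk1 read 141, 126, 140.0 and 80.3, and its relatives Pcsk5 and Pcsk6 read 126, 101, 139.9 and 187, and 85.7, 308, 398 and 290.4. Pcsk6 was lowest at 1 h.

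Trk signalling genes also had slopes in both directions. Of 19 kept probe sets of 16 genes, 12 had positive and 7 negative slopes, with a median slope of 0.01, and without the 1 h array 13 were positive, with a median of 0.02. Camk2b, a calcium/calmodulin kinase subunit, and Map2k1, the kinase MEK1 of the ERK cascade, had the highest intensities, at 12679 ± 445 and 4031 ± 345. The survival kinase Akt1 read 814 at 1 h and 1186 to 1455 later, and Cdk5, a neuronal kinase, 1405, 1649, 1560.2 and 1849.5 at 1, 2, 4 and 6 h. Fyn, a Src family kinase, read 2525 at 1 h and 1425 to 1877 later. Mapk7, the ERK5 kinase, read 239 at 2 h and 68.3 to 94.5 in the other arrays.

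**Figure D3:**
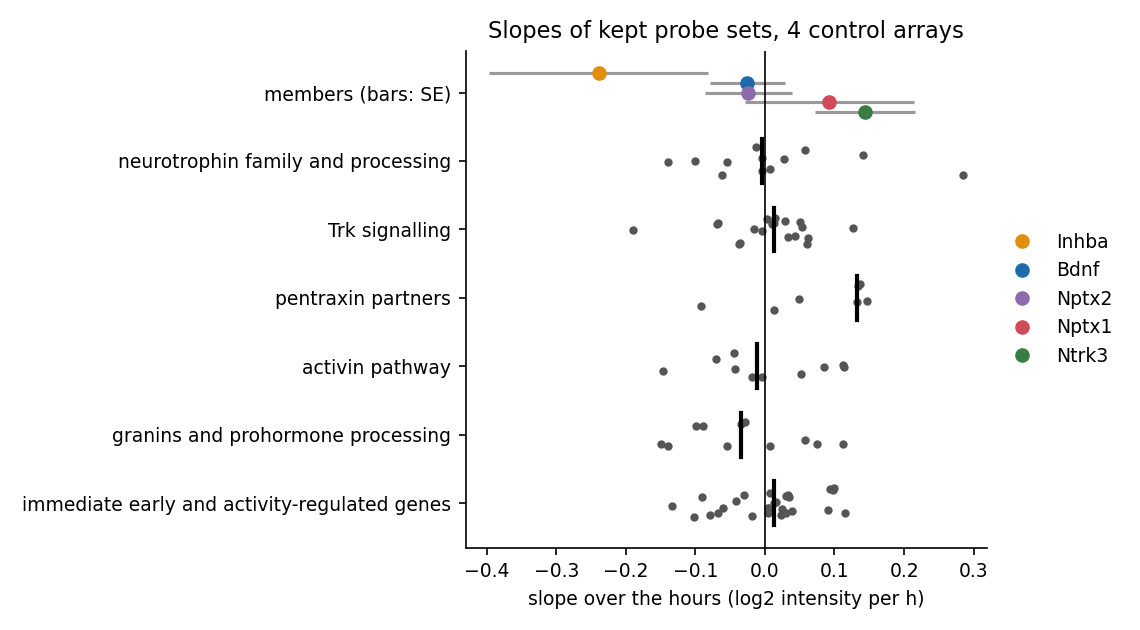
Slope over the hours (log2 intensity per h) of the 5 kept members (coloured points, bars are SE) and of the kept probe sets of 6 pathway lists (grey points, black bars are medians); points are spread vertically for legibility only. Medians lie close to 0 except for pentraxin partners at 0.13, and Inhba has the most negative slope among the members, -0.24.

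Pentraxin partners were mainly the AMPA receptor subunit genes. Of 7 kept probe sets of 4 genes, 6 had positive slopes and 1 a negative slope, with a median of 0.13. Gria1 read 4607 at 1 h and 6823 to 8692 later, and Gria3 171 at 1 h and 362 to 474 later. Gria2 differed by probe set, with 9675 at 1 h and 10107 to 10314 later on one, 584 at 1 h and 1069 to 1129.8 later on another, and 1305, 1020, 962 and 899.7 over the hours 1, 2, 4 and 6 on one more. In 6 of the 7 probe sets the 1 h array, whose Gapdh ratio was 4.88, was the lowest, as it was for Nptx1. Gria1 and Gria2 each gave more than 1 of these probe sets. Without that array 3 of 7 slopes were positive and the median was -0.02. The 1 h array was also lowest in 8 of 19 kept probe sets of Trk signalling and 12 of 27 of the immediate early genes. It was lowest in 1 of 12 of neurotrophin processing, 1 of 10 of the activin pathway and 2 of 11 of the granins. The share of all kept probe sets is not given here. The part of RNA quality in the 1 h values was not tested.

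Of the activin pathway genes, receptors, SMADs and inhibitors were measured. Of 10 kept probe sets of 9 genes, 4 had positive and 6 negative slopes, with a median of -0.01. With the 1 h array left out, 6 of 10 slopes were positive, with a median of 0.05. Acvr2a, a type II activin receptor, read 703 at 1 h and 530 to 576 later on one probe set and 166, 134, 216 and 169.9 over the hours 1, 2, 4 and 6 on another, and Smad4, the shared SMAD partner, 875 at 1 h and 626 to 750.3 later. Acvr1b, the type I activin receptor, read 155, 70.1, 249.7 and 145 at 1, 2, 4 and 6 h. The other type II receptor gene Acvr2b read 423 to 433 at 1, 2 and 4 h and 649 at 6 h, and Inhbc, another inhibin beta chain, read 321, 298, 215 and 200.4 (slope -0.15, limma adjusted p = 0.874).

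Granins and prohormone processing genes are the class to which Vgf belongs. Of 11 kept probe sets of 8 genes, 4 had positive and 7 negative slopes, with a median of -0.03, and without the 1 h array 5 were positive, with a median of -0.00546. Chgb, secretogranin I, read 20291 at 1 h and 14238 to 15916 later, and Pcsk1n (proSAAS) 6929.9 at 1 h and 9459 to 9672 later. The probe sets of Chga, chromogranin A, ran in opposite directions, 590 at 1 h and 932 to 1032 later on one, and 381 at 1 h and 183 to 240.1 later on the other.

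Immediate early and other activity-regulated genes were read beside Bdnf, Nptx2 and Inhba, since neuronal activity induces both classes. Of 27 kept probe sets of 23 genes, 18 had positive and 9 negative slopes, with a median of 0.01. Plk2 and Plk3, polo-like kinases, had the highest intensities, at 4207 ± 336 and 5635 ± 854, the latter on a probe set of the less specific _r_at kind. The growth inhibitor Btg2 read 756, 871, 1266 and 1011 at 1, 2, 4 and 6 h, and Junb, an AP-1 subunit, 412, 403, 675 and 547 on one probe set and 124, 205, 174 and 199 on another. Atf3, a stress-induced transcription factor, read 195, 225, 203 and 141, and Gadd45b, a stress-response gene, 419.8 at 1 h and 205 to 236 later on a less specific probe set. Its other kept probe set read 371, 152, 249 and 279, with a slope of 0.0038. The count of positive slopes depended on the 1 h array: without it 10 of 27 were positive, with a median of -0.01.

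Genes whose profile over the 4 arrays lay nearest to those of Nptx1 and Inhba, the kept members that spanned 2-fold, were found by the root mean square difference between log2 profiles, each centred on its mean, among 6733 kept probe sets of other genes. Over only 4 arrays many profiles are alike, and 62 lay within 0.2 log2 units of Nptx1 and 7 of Inhba. The nearest to Nptx1 were Cry2, a circadian clock repressor (188, 542, 324 and 383 at 1, 2, 4 and 6 h, a difference of 0.063), Mobp, a myelin gene (1004, 2786, 1669 and 1937, 0.073), and Thap7 (141, 409, 267 and 306, 0.084). The oligodendrocyte marker list, which holds Mobp, had its highest sum, 20100.2, in the same 2 h array. Like Nptx1, 7 of its 9 kept probe sets were lowest at 1 h and highest at 2 h, namely those of Mog and Mbp, 1 of Mag and 3 of Mobp. The Mobp probe set picked as nearest to Nptx1 is among them. The same 4 arrays gave both the pick and the count, so the count is not independent of the pick. The same shape was seen in 3 of 9 kept astrocyte, 2 of 7 microglia, 1 of 5 CA pyramidal and 1 of 6 granule cell probe sets. It was seen in 0 interneuron, endothelial or choroid plexus probe sets, and its share of all kept probe sets is not given here. The part of oligodendrocyte RNA in the Nptx1 values was not tested. Of the other 3 Mobp probe sets, 2 were also lowest at 1 h and highest at 2 h, at 223, 862, 377 and 472 and at 307, 1138, 557 and 525, and the one of highest intensity was lowest at 6 h, at 6091, 6907, 4428 and 4297.

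The nearest to Inhba were Nek2, a mitotic kinase (209, 99, 228 and 66.5 at 1, 2, 4 and 6 h, a difference of 0.087), Zbtb45 (236, 108, 246 and 74.9, 0.108) and Ssc4d (207, 96.8, 170.3 and 52.6, 0.163). All 3 had dim signals, between 52.6 and 246. Another probe set of Zbtb45 read 655, 611, 608 and 666, so the alternating profile was not shared by the probe sets of that gene.

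**Figure D4:**
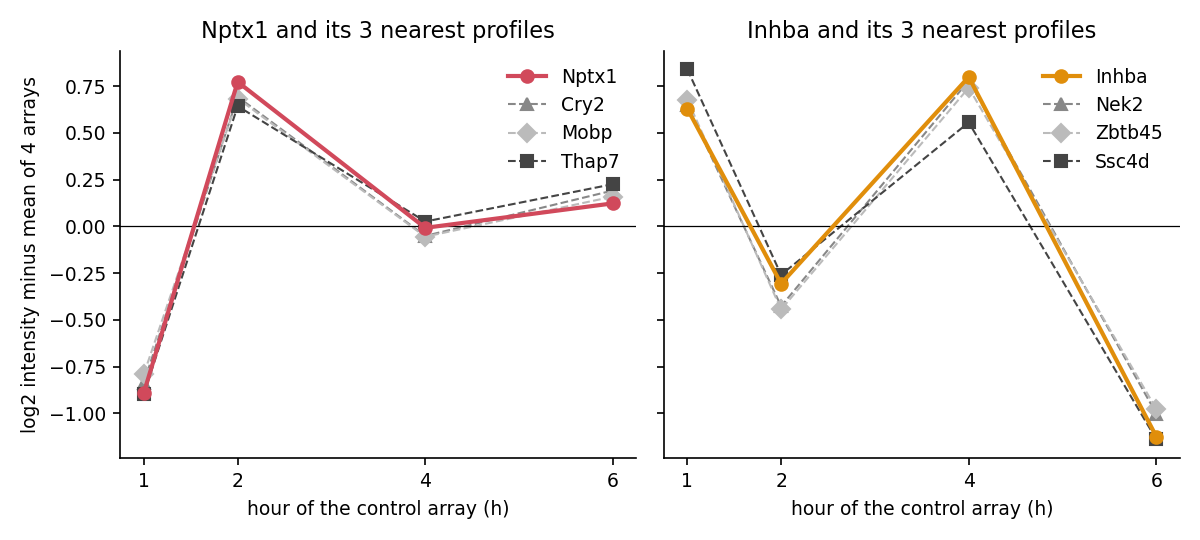
Log2 intensity minus the mean of the 4 arrays, against the hour, for Nptx1 (left) and Inhba (right, solid lines) and the 3 nearest profiles of other genes (dashed). Nptx1, Cry2, Mobp and Thap7 are lowest at 1 h and highest at 2 h, and Inhba, Nek2, Zbtb45 and Ssc4d are high at 1 and 4 h and low at 2 and 6 h.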

How the data were processed

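The authors deposited intensity values on a linear scale for 12488 probe sets in 4 arrays; the software, scaling and detection calls are not given in the sources used here. The 2%-trimmed mean over all rows was 500.3 in every array, so a difference in total RNA does not show. Control probe sets (66) were left out. Gene symbols came from the supplied array annotation, with Entrez identifiers looked up in a GRCm38.p6 table. Of 12422 probe sets, 10833 had 1 symbol, 396 several and 1193 none. Values were used as scaled, set to a floor at their 10th percentile (16.4) and taken to log2. A probe set was kept where its mean log2 reached the 40th percentile (6.66), which kept 7453, 5 of the 6 members among them. The trend was fitted with limma 3.58.1 in R 4.3.3 (lmFit, eBayes with an intensity trend, two-sided, Benjamini-Hochberg over 7453 probe sets, 2 residual degrees of freedom) and tested on simulated data. The simulated slopes were steeper than those of the members, and every simulated probe set had the same noise. The simulation therefore does not show how well slopes of the members' size would be found. The number of arrays limits the precision.

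Members and lists were chosen with earlier results of these data known. Named genes are all members and, per list, the 2 largest slopes in each direction and the 2 brightest probe sets. Plat, Mag, Mog and Mbp, and other probe sets of Mobp, Zbtb45, Acvr2a, Junb and Gadd45b were added after their values were seen. So were the single markers Calb1, Prox1, Nnat, Rgs14, Aqp4, Cck, Ttr, Folr1 and Kl. Probe sets whose names end in _f_at, _r_at, _s_at, _i_at or _g_at can share sequence with other genes.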

Additional observations from a re-analysis of the deposited data

How the results depend on the processing

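In every alternative 0 members passed the trend test in limma, and an unadjusted p under 0.05 was reached by 1 of 5 on the log2 of the hour, without the 1 h array and without the 2 h array, beside 8.95%, 5.23% and 13.4% of all kept probe sets (4.40% as reported). The member was Ntrk3 on the log2 of the hour and Nptx1 with either array left out. The Nptx1 slopes had opposite signs, -0.16 without the 1 h array and 0.21 without the 2 h array. The number of all probe sets that passed, 1 as reported, was 0 with no filter on dim probe sets and 0 with a variance prior without an intensity trend, and ranged from 0 to 1 when each array was left out in turn. Slopes of members turned sign only with an array left out: across these fits Bdnf ranged from -0.068 to 0.062, Nptx1 from -0.16 to 0.21, Nptx2 from -0.078 to 0.043 and Inhba from -0.32 to 0.13. Changes of filter and variance prior cannot alter a slope, and the raised floor altered none of these. With no filter on dim probe sets, 2499, 2420 and 2462 probe sets were 2-fold apart at 2, 4 and 6 h against 1 h, and 1983, 1788 and 1821 at 4 h against 2 h, 6 h against 2 h and 6 h against 4 h. With the filter at the 60th percentile the counts were 249, 204 and 231, then 49, 40 and 37, because fewer and brighter probe sets were counted; Inhba failed that filter. Scaling to the same median moved the median difference of all non-control probe sets at 6 h against 1 h from -0.05 to 0.07 log2 units and changed no count of members. No paired analysis was possible because the arrays form 1 group. The signal of Ntrk2, near the floor, limits what can be read from it.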
